A study of Mus musculus with 6 samples.

Results

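The unfolded protein response (UPR) and the integrated stress response were followed through 32 genes, taken by symbol from the 32285 features of a count table of sorted type 1 conventional dendritic cells (cDC1s). The genes were chosen by name and grouped by sensor arm: 10 belong to the arm of IRE1 and XBP1, 11 to that of ATF6, and 11 to that of PERK and ATF4. All 32 symbols were found in the table, and all 32 passed the filter on low counts that left 12568 genes. The cells came from the mLN of C57BL/6 mice that had all been given 50 µg HDM (house dust mite) into the nose, and they were sorted 24 h later. RNA was sequenced in 3 libraries of wild type mice (WT) and 3 libraries of mice with the genotype Vps33BdeltaDC, a conditional deletion of Vps33b (KO). Every library is HDM-treated, so no value here describes unexposed cells. The sources used here do not give the driver of the deletion, the age of the mice, or whether each library is a separate animal. The p-values therefore measure only the spread between libraries, and that spread may be technical.

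When unfolded proteins collect in the endoplasmic reticulum (ER), 3 membrane sensors respond. IRE1 cuts Xbp1 mRNA so that it encodes an active transcription factor, ATF6 is carried to the Golgi and cleaved there to free another, and PERK phosphorylates eIF2α, which lowers general translation while Atf4 mRNA is translated more. GCN2, the kinase that senses uncharged tRNA, phosphorylates the same factor, and this shared branch is called the integrated stress response. Dendritic cells, cDC1s in particular, are known for IRE1 and XBP1 activity without added stress, and IRE1 in these cells can also degrade other mRNAs.

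The libraries held between 11755944 and 18450678 counts, so that 1 read stood for 0.0542 to 0.0851 CPM, the unit of counts scaled to the library size. Vps33b (ENSMUSG00000030534), the deleted gene, was at 16.2, 19.1 and 13.8 CPM in WT replicates 1 to 3 and at 5.0, 7.01 and 8.29 CPM in KO replicates 1 to 3. The 2 groups did not overlap, and the log2 fold change of -1.28 ± 0.27 (SE) had an edgeR quasi-likelihood adjusted p of 0.834. Of 9 cDC1 markers, all were detected in every library (Irf8 at 1244 to 1741 CPM, Batf3 at 124 to 176, Clec9a at 50.8 to 85.5, Tlr3 down to 0.353 CPM in KO replicate 3), next to those of mature dendritic cells (Ccr7 at 4365 to 5469 CPM). No cDC1 marker had an edgeR adjusted p under 0.05, but 7 of the 9 estimates lay below 0. Their median log2 fold change was -0.47. An unadjusted p under 0.05 was found for 3 of the 9, all lower in KO, and Xcr1 (-1.43) and Wdfy4 (-0.89) were lower in every KO library. Over all genes, 6208 of 12568 estimates lay below 0. A share of 3.06% was lower in KO at an unadjusted p under 0.05, and 5.19% was lower without overlap. Of 7 tested markers of plasmacytoid dendritic cells (pDC), 5 lay below 0, with a median of -0.71, and Siglech (-2.32, at 3.85 to 12.6 CPM in WT and 3.33 CPM or less in KO) did not overlap between groups. The list summed to 284, 231 and 265 CPM in WT and 262, 256 and 246 CPM in KO, mostly from Spib. Some markers of other cells varied between libraries: plasma cell genes, which belong to cells with a strong UPR, summed to 246, 398 and 1328 CPM in WT and 1158, 619 and 978 CPM in KO. That sum came mostly from Ighm, Igha, Igkc and Jchain, while Tnfrsf17 was at 0 in all libraries, Mzb1 at 2.38 CPM or less and Derl3, an ER gene of plasma cells, at 2.65 CPM or less. Monocyte and macrophage genes summed to 148 to 272 CPM in the other libraries and to 563 CPM in KO replicate 3, where Lyz2 stood at 468 CPM, while Cd14, of the same list, was lower in every KO library, with a log2 fold change of -1.75. The part of these other cells in the results below was not tested.

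The sequence on which IRE1 acts is a pair of short stem-loops in Xbp1 mRNA, shown here because the gene's total count cannot separate its 2 forms. In mm10 it lies at chr11:5524279-5524304 on the plus strand, in exon 4 of transcript Xbp1-201, and all 3 protein-coding GENCODE transcripts of the gene hold it. The capitals mark the 26 bases that IRE1 excises.
Xbp1 site: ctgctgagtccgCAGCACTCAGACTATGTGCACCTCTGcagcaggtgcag

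Promoter windows from RefSeq (GRCm38.p6), the 250 bases before each start, were found for 27 members and not for Atf6, Hyou1, Derl1, Manf and Ppp1r15b. They were searched on both strands for 4 motifs. They are the ER stress response elements ERSE (CCAAT, any 9 bases, then CCACG) and ERSE-II (ATTGG, any 1 base, then CCACG), UPRE (TGACGTGG), and CARE, the element of ATF4 and its partners (TGATGNAAN). No match of one motif overlapped a match of another. ERSE stood in the windows of 7 members, or 25.9%, against 0.113% of 32851 RefSeq windows of the same length. The first share counts members and the second counts windows. Because the members were chosen by name as genes of this response, the excess is a description and no support for the grouping. The 7 members are Hspa5, Hsp90b1, Canx, Pdia6, Dnajc3, Syvn1 and Creld2. ERSE-II was found only in Herpud1, against 0.0304% of all windows, CARE in Herpud1, Asns and Chac1 (3.44% of all windows), and UPRE in no member (0.563% of all windows). The windows of the 4 highest-expressed ERSE or ERSE-II members and of the other CARE members are printed below, with the motif in capitals, 5′ to 3′ on the gene's strand. The second match in Hsp90b1 and the CARE of Herpud1 and Chac1 lie on the opposite strand. A window was ended where GENCODE M21 starts the gene if that point lay inside it, and for Hspa5 and Asns, whose motif lies past that point, only 30 bases around the motif are given. In the order printed, they are chr2:34772020-34772049 (plus strand), chr10:86705510-86705694 (minus), chr11:50325674-50325923 (minus), chr8:94386179-94386428 (plus), chr6:7693213-7693242 (minus) and chr2:119350992-119351228 (plus).
Hspa5: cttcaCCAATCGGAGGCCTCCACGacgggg
Hsp90b1: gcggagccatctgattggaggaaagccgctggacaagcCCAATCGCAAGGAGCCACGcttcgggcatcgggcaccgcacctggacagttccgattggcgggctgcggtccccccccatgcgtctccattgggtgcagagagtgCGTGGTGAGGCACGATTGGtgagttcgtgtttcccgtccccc
Canx: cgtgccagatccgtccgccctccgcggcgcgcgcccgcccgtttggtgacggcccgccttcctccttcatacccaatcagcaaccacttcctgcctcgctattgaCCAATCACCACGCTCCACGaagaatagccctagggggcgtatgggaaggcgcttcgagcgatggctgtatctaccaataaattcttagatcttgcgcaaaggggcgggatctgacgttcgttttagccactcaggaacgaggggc
Herpud1: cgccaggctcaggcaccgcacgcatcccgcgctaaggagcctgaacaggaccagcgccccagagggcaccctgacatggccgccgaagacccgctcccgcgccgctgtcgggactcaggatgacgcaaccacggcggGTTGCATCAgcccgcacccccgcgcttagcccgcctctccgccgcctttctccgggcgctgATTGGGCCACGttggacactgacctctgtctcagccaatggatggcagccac
Asns: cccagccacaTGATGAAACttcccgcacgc
Chac1: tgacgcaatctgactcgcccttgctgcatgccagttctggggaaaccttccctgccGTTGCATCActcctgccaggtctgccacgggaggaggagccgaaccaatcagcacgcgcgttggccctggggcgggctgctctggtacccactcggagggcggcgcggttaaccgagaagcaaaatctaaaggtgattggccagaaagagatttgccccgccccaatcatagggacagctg

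Among the members, the level per length (CPM per kb of mRNA, means over the 6 libraries) ran over a wide range, from 0.438 for Trib3 to 382 for Ppp1r15a. Ppp1r15a encodes GADD34, the stress-induced subunit that directs a phosphatase to eIF2α, and it stood beside Herpud1, a membrane component of ER-associated degradation, at 329 CPM per kb. The library ranges of these 2 genes overlapped (316 to 444 and 280 to 406 CPM per kb), and both lay above the third gene, Atf4, at 147 CPM per kb. Hspa5, which encodes the ER chaperone BiP, followed at 130 CPM per kb and overlapped Atf4, while Canx (calnexin) at 81.6 and Hsp90b1 (GRP94) at 75.0 formed the next overlapping pair. Below them Sel1l at 55.0 and Edem1 at 51.9 CPM per kb overlapped, and from there each gene overlapped the next down to Manf at 13.3 CPM per kb. In all, 25 of the 32 members lay above the median of the genes tested, which was 6.90 CPM per kb.

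The lowest members included a sensor and several genes that ATF4 induces. Ern1, which encodes IRE1, was at 1.92 CPM per kb, against 7.85 for Atf6 and 9.58 for Eif2ak3, the gene of PERK. Below 3 CPM per kb lay 5 members, namely Hyou1, Asns, Ern1, Chac1 and Trib3. Thus Xbp1 mRNA, at 31.7 CPM per kb, exceeded that of its processing enzyme by 11.6 to 25.6 times in the single libraries. Atf6 was also the lower of its pair: Atf6b, the related ATF6-family gene, was 5.77 to 7.23 times as high per length in every library. Of the phosphatase subunits, the inducible Ppp1r15a exceeded the constitutive Ppp1r15b, which encodes CReP, by 11.03 to 16.4 times.

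**Figure D1:**
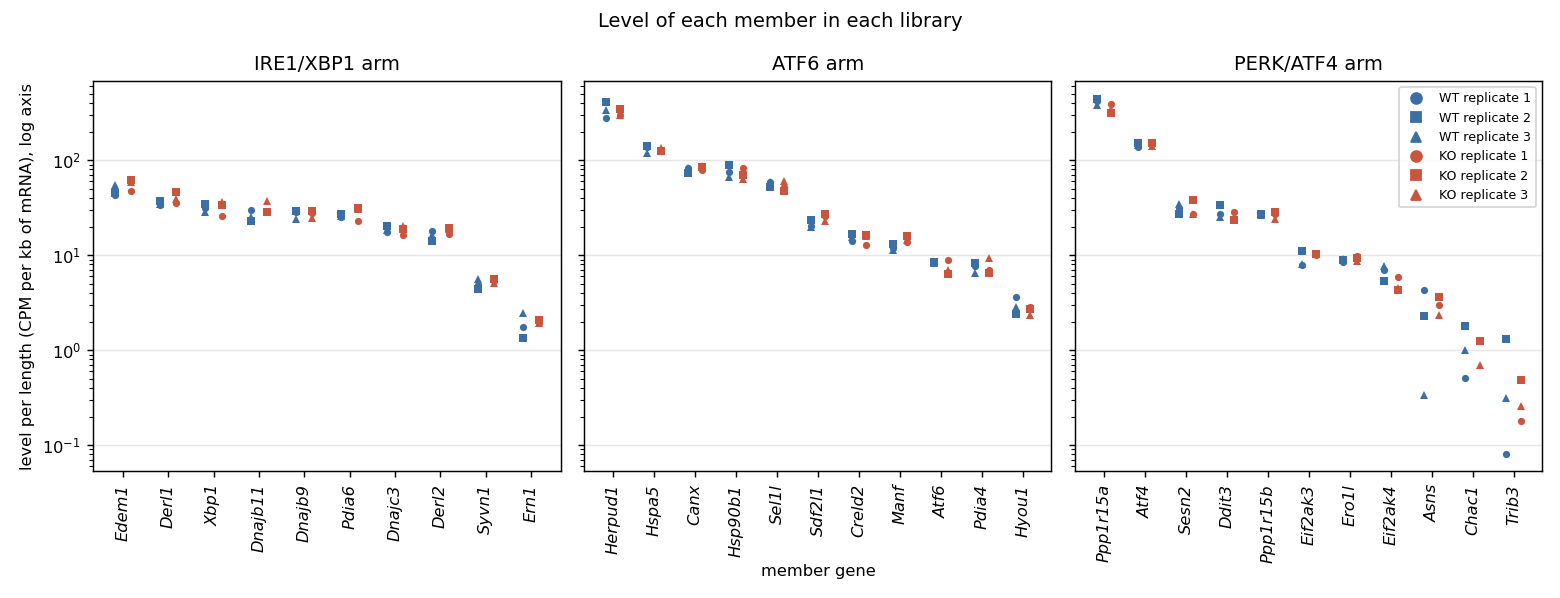
Level per length (CPM per kb of mRNA, log axis) of each of the 32 members in each of the 6 libraries, by sensor arm; blue marks are WT and red marks KO, with one shape for each replicate number. Ppp1r15a and Herpud1 stand highest, the WT and KO marks lie close together for most genes, and Asns, Chac1 and Trib3 spread most.

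The comparison of KO with WT asks whether the transcripts of the stress response differ when Vps33b is deleted. No member passed the test. Of the 32 members, 0 had an edgeR quasi-likelihood adjusted p under 0.05, where the background is 0.0% of 12568 genes, and DESeq2 and limma-voom called 0 members as well. Only Eif2ak4, 1 member of 32, had an unadjusted p under 0.05. It was lower in KO, and 5.77% of all genes lay past that value, with 3.06% lower and 2.71% higher. The groups did not overlap for 1 member, Manf, higher in KO, against a background of 10.6% of all genes, or 5.46% in that direction and 5.19% in the other. Both counts stand below the background share. The median log2 fold change over the members was 0.02, over all genes tested 0.00.

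For most members the data bound the difference tightly. The 95% interval of the log2 fold change lay within 1.5-fold in both directions for 22 of the 32 members, against 35.9% of all genes. Those 22 include Xbp1, Atf6, Eif2ak3, Atf4, Hspa5, Canx, Herpud1, Edem1 and Ppp1r15a. The 10 with wider intervals were Ern1, Dnajb11, Hyou1, Sdf2l1, Manf, Eif2ak4, Ddit3, Trib3, Asns and Chac1. Only Trib3 had an estimate beyond 1.5-fold, where 12.9% of all genes had one. Interval width falls with the level of a gene, and most members are expressed above the median gene, so the share of narrow intervals is a description of these genes and not a difference from the rest. Fewer cells of a type and less RNA per cell cannot be told apart in such bulk samples.

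**Figure D2:**
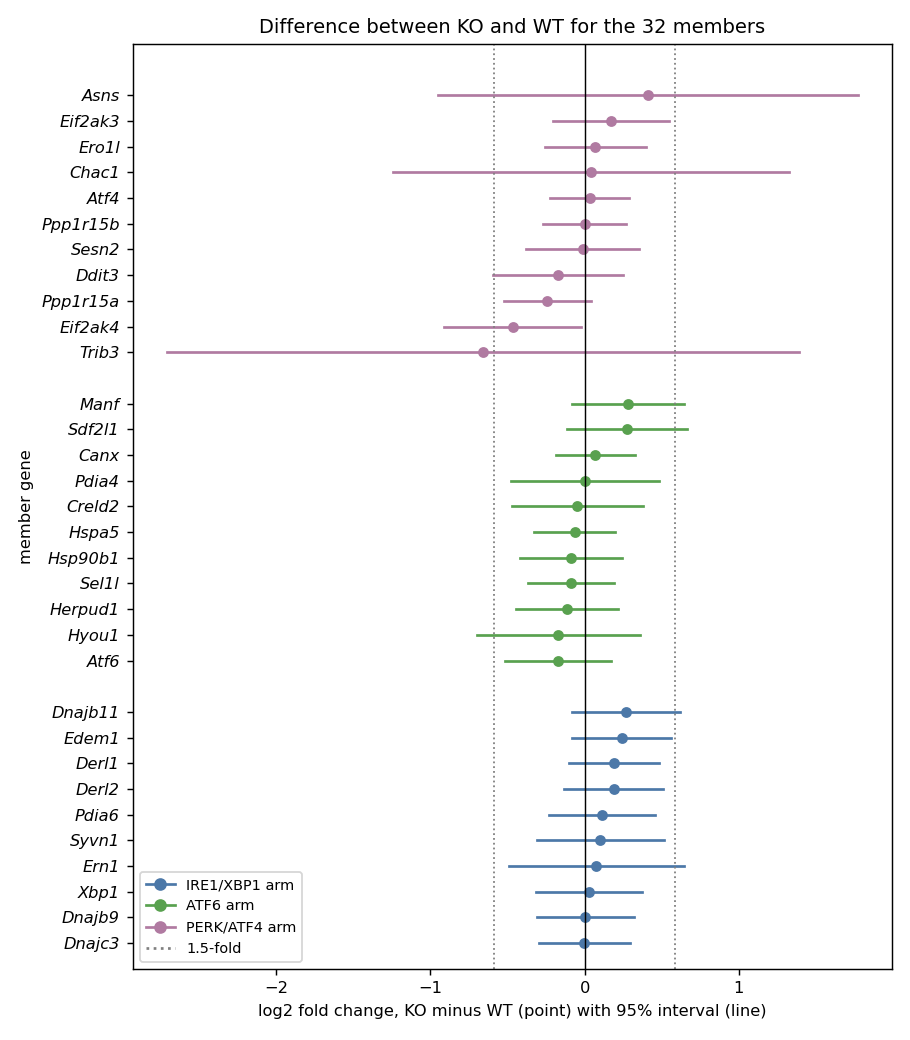
Log2 fold change, KO minus WT, of each member from edgeR (point) with its 95% interval (line), by sensor arm; dotted lines mark 1.5-fold in either direction. Only the interval of Eif2ak4 leaves out 0, and those of Trib3, Asns and Chac1 are the widest.

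In the arm of IRE1 and XBP1, 9 of the 10 members had an estimate above 0, against 6360 of the 12568 genes, with a median of 0.11 on the log2 scale, and 0 of 10 passed the test at an unadjusted p under 0.05. Ern1 (ENSMUSG00000020715, chr11:106394650-106487852, minus strand) was at 12.3, 9.33 and 17.2 CPM in WT and 13.5, 14.3 and 13.4 CPM in KO. All KO values lay inside the WT range, and the log2 fold change was 0.08 ± 0.26 (SE), which moved to 0.34 without WT replicate 3 and to -0.10 without WT replicate 2. Xbp1 (ENSMUSG00000020484, chr11:5520659-5525893, plus strand) was at 66.3, 73.2 and 60.9 CPM in WT and 55.8, 72.1 and 76.7 CPM in KO. KO replicate 1 was the lowest library and KO replicate 3 the highest, so the groups overlapped throughout, with a log2 fold change of 0.03 ± 0.16 and a 95% interval from -0.31 to 0.37. These totals count both forms of the mRNA, with and without the 26 bases printed above, and therefore do not measure how much of it IRE1 had processed.

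Of the genes of this arm that XBP1 is known to induce, none passed the test, and the groups overlapped for each of them. Many ER genes answer to both XBP1 and ATF6, so the arms are only a description, and this holds for the members placed here. Edem1, a lectin that hands misfolded glycoproteins to degradation, was at 252, 260.0 and 319 CPM in WT and 276, 359 and 345 CPM in KO. The highest of the 6 were KO replicates 2 and 3, KO replicate 1 lay inside the WT range, and the log2 fold change was 0.24 ± 0.15 (edgeR adjusted p = 0.854). The same 2 KO libraries were highest for Derl1, a channel component of ER-associated degradation, at 108, 117 and 111 CPM in WT and 113, 146 and 124 CPM in KO, where the log2 fold change was 0.19 ± 0.13. They were highest again for the related Derl2, at 66.1, 51.8 and 59.2 CPM in WT and 61.7, 71.4 and 69.2 CPM in KO, with 0.19 ± 0.15. Dnajb11, a co-chaperone of BiP, was at 75.4, 57.6 and 63.6 CPM in WT and 74.1, 71.0 and 93.0 CPM in KO. Here only KO replicate 3 stood above all WT libraries, and the log2 fold change was 0.27 ± 0.16. The other 4 members of the arm, the co-chaperones Dnajb9 and Dnajc3, the disulfide isomerase Pdia6 and the ubiquitin ligase Syvn1, ranged from 0.00 to 0.11 on the log2 scale.

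Summed over the arm, the level was 816, 821 and 862 CPM in WT and 819, 995 and 973 CPM in KO. KO replicate 1 thus lay among the WT libraries and KO replicates 2 and 3 above them. Without KO replicate 1 the median log2 fold change of the arm was 0.20, without WT replicate 3 it was 0.19, and without KO replicate 2 it was 0.042. Edem1 had a log2 fold change of 0.35 without KO replicate 1 and of 0.15 without KO replicate 2, and Derl1 of 0.07 without KO replicate 2. KO replicates 2 and 3 were also the libraries with the highest sum over the markers of mature dendritic cells. That list summed to 16550, 16080 and 16400 CPM in WT and to 16460, 19340 and 21760 CPM in KO. The sum came mostly from Ccr7, Fscn1 and Ccl22, and not every marker followed it. Cd83 was highest in WT replicate 2, at 2319 CPM. Cd40 was at 552, 554 and 578 CPM in WT, at 533 CPM in KO replicate 2 and at 622 CPM in KO replicate 3. The part of maturation in the arm's values was not tested.

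In the arm of ATF6, 4 of the 11 members had an estimate above 0, the median log2 fold change was -0.06, and 0 of 11 passed at an unadjusted p under 0.05. Atf6 (ENSMUSG00000026663, chr1:170704674-170867771, minus strand) was at 59.7, 61.5 and 59.6 CPM in WT and 64.0, 45.7 and 50.7 CPM in KO. The WT values were nearly equal, while KO replicate 1 lay above them and KO replicates 2 and 3 below, and the log2 fold change was -0.17 ± 0.16. Leaving out KO replicate 2 gave -0.08 and leaving out KO replicate 1 gave -0.33, with an edgeR adjusted p of 0.404 in that fit.

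The ER chaperones that ATF6 is known to induce differed little between the groups. Hspa5 was at 512, 515 and 442 CPM in WT and 462, 455 and 490 CPM in KO, and its groups overlapped. Its log2 fold change was -0.06 ± 0.12, with a 95% interval from -0.32 to 0.20, and a change by 1.5-fold lies outside that interval. Canx at 0.07 ± 0.12, Hsp90b1 at -0.09 ± 0.15, Pdia4, a disulfide isomerase, at 0.01 ± 0.22, Creld2 at -0.05 ± 0.19 and Sel1l, the scaffold of the degradation ligase, at -0.09 ± 0.13 gave similarly small log2 differences. Hyou1 (ORP150), an exchange factor for BiP, was low at 16.2, 10.8 and 12.9 CPM in WT and 12.8, 12.1 and 10.5 CPM in KO. Its highest library was WT replicate 1, the groups overlapped, and the log2 fold change of -0.17 ± 0.24 has a 95% interval from -0.70 to 0.36.

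Herpud1 was at 546, 793 and 666 CPM in WT and 585, 682 and 582 CPM in KO. WT replicates 1 and 2 were its lowest and highest libraries, and the log2 fold change of -0.11 ± 0.15 moved to 0.02 without WT replicate 2 and to -0.24 without WT replicate 1. Manf, a secreted factor that is held in the ER by BiP, was at 26.7, 29.1 and 25.5 CPM in WT and 30.6, 35.4 and 32.5 CPM in KO. Every KO library was higher than every WT library, and the log2 fold change was 0.28 ± 0.17 (edgeR adjusted p = 0.845). An exact two-sided permutation test gave p = 0.1, the smallest value that 3 libraries against 3 can give. Any gene whose groups do not overlap gets that value, so it adds nothing to the lack of overlap. Sdf2l1, which works with an ER-resident J protein on misfolded clients, was at 22.3, 25.8 and 21.9 CPM in WT and 28.9, 29.9 and 25.2 CPM in KO. Only KO replicate 3 fell inside the WT range, with a log2 fold change of 0.28 ± 0.18. Exons of Manf share 8.9% of their bases with opposite-strand genes and those of Hsp90b1 10.3%, and how such reads were assigned is unknown, which leaves both counts uncertain.

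In the arm of PERK and ATF4, the median log2 fold change was 0.00, with 6 of 11 members above 0 and a range from -0.089 to 0.067 when 1 library was left out. Eif2ak4, which encodes GCN2 (ENSMUSG00000005102, chr2:118388618-118475234, plus strand), had the smallest p of all members. Its level was 36.0, 28.0 and 40.6 CPM in WT and 30.5, 22.2 and 23.4 CPM in KO. KO replicates 2 and 3 were the lowest libraries, KO replicate 1 lay above WT replicate 2, and the groups overlapped. The log2 fold change was -0.47 ± 0.20, with an edgeR unadjusted p of 0.0405 and an adjusted p of 0.834. The unadjusted p was over 0.05 when WT replicate 1, WT replicate 3, KO replicate 2 or KO replicate 3 was left out, and the estimate ranged from -0.62 to -0.34 over all alternatives. In WT, PERK mRNA exceeded that of GCN2 by 1.42 times per length on average, and in KO by 2.12 times, with single libraries between 1.04 and 2.39 and no test of the ratio.

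Eif2ak3 (ENSMUSG00000031668, chr6:70844515-70905245, plus strand) was at 35.4, 50.3 and 36.5 CPM in WT and 45.1, 46.0 and 46.0 CPM in KO. Its KO libraries were nearly equal and lay inside the WT range, with a log2 fold change of 0.17 ± 0.17. WT replicate 2 was the highest library, and the estimate was 0.34 without it, 0.08 without WT replicate 1 and 0.10 without WT replicate 3. A share of 8.0% of its exonic bases lies in an opposite-strand gene. Atf4 (ENSMUSG00000042406, chr15:80255184-80257541, plus strand) was at 239, 265 and 249 CPM in WT and 269, 259 and 242 CPM in KO. Its libraries overlapped, and its log2 fold change of 0.03 ± 0.12 has a 95% interval from -0.22 to 0.29. ATF4 is controlled mainly at translation, so its mRNA does not measure the protein. Ddit3, the gene of the transcription factor CHOP (ENSMUSG00000025408, chr10:127290774-127296288, plus strand), was at 24.0, 30.1 and 22.5 CPM in WT and 25.1, 20.9 and 21.6 CPM in KO. Its lowest libraries were KO replicates 2 and 3, KO replicate 1 lay inside the WT range, and the log2 fold change was -0.17 ± 0.19. Its exons share 4.7% of their bases with opposite-strand genes and 6.1% with a second feature of the same name, so its count is uncertain too.

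The targets of this arm ran from 382 CPM per kb for Ppp1r15a over 31.0 for Sesn2 and 9.12 for Ero1l down to 0.438 for Trib3. Ppp1r15a was at 1180, 1248 and 1064 CPM in WT and 1095, 887 and 972 CPM in KO. Again KO replicates 2 and 3 were the lowest, KO replicate 1 lay inside the WT range, and the log2 fold change was -0.24 ± 0.13 (edgeR adjusted p = 0.834), with a 95% interval from -0.52 to 0.04. Sesn2, a sensor of leucine and regulator of mTORC1, was at 109, 95.2 and 121 CPM in WT and 94.8, 134 and 93.3 CPM in KO. The highest and the lowest library were both KO, and the log2 fold change was -0.01 ± 0.17. Ero1l, the oxidase that recharges disulfide isomerases, was at 37.9, 39.7 and 40.4 CPM in WT and 43.8, 41.5 and 38.5 CPM in KO. It varied little, overlapped between groups and had a log2 fold change of 0.07 ± 0.15. Ppp1r15b, with 11.4% of its exonic bases shared with an opposite-strand gene, stood at 134 to 160 CPM and a log2 fold change of 0.00 ± 0.12.

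Asns, Chac1 and Trib3, which ATF4 is known to induce strongly, were scarce and varied most. Asns (asparagine synthetase) was at 8.68, 4.67 and 0.688 CPM in WT and 6.01, 7.36 and 4.76 CPM in KO. WT replicate 3 held only 13 reads of it, and the log2 fold change of 0.41 ± 0.60 turned to -0.14 without that library and was 1.31 without WT replicate 1. Trib3, a pseudokinase that restrains CHOP, was at 0.165, 2.64 and 0.635 CPM in WT and 0.362, 0.993 and 0.529 CPM in KO, or 3 to 39 reads a library. WT replicate 2 was far above the others, and the log2 fold change of -0.66 ± 0.94 turned to 0.69 without it and was -1.20 without WT replicate 1. Chac1, which degrades glutathione, ranged from 0.824 to 2.98 CPM, with 0.04 ± 0.58. The 95% intervals of all 3 genes include a 2-fold rise, so these libraries do not exclude such a change.

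The 4 members Atf6, Hsp90b1, Ddit3 and Ppp1r15a had the same 3 lowest libraries as most immediate-early and heat-shock genes. The handling of cells can induce genes of the latter kind. Those libraries were WT replicate 3 and KO replicates 2 and 3, an order noticed after the values were seen. It held for 12.5% of the 32 members, against 7.47% of all genes, and for 2 of the 11 members of the PERK and ATF4 arm. Of the 24 other ATF4 and CHOP targets tested, 2 had the same 3 lowest libraries, Soat2 and Atf3, a share of 8.33% against 7.47% of all genes. Atf3, a stress-induced transcription factor, was at 376, 545 and 340 CPM in WT and 430, 343 and 243 CPM in KO. Of the 11 immediate-early and heat-shock genes, 9 had the same 3 lowest libraries. Summed, the 11 genes stood at 9176, 12270 and 7224 CPM in WT and 11660, 6115 and 5091 CPM in KO. All 11 had an estimate below 0 and 0 of 11 passed at an unadjusted p under 0.05. The part of handling in the values of the 4 members, Atf3 and Soat2 was not tested.

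**Figure D3:**
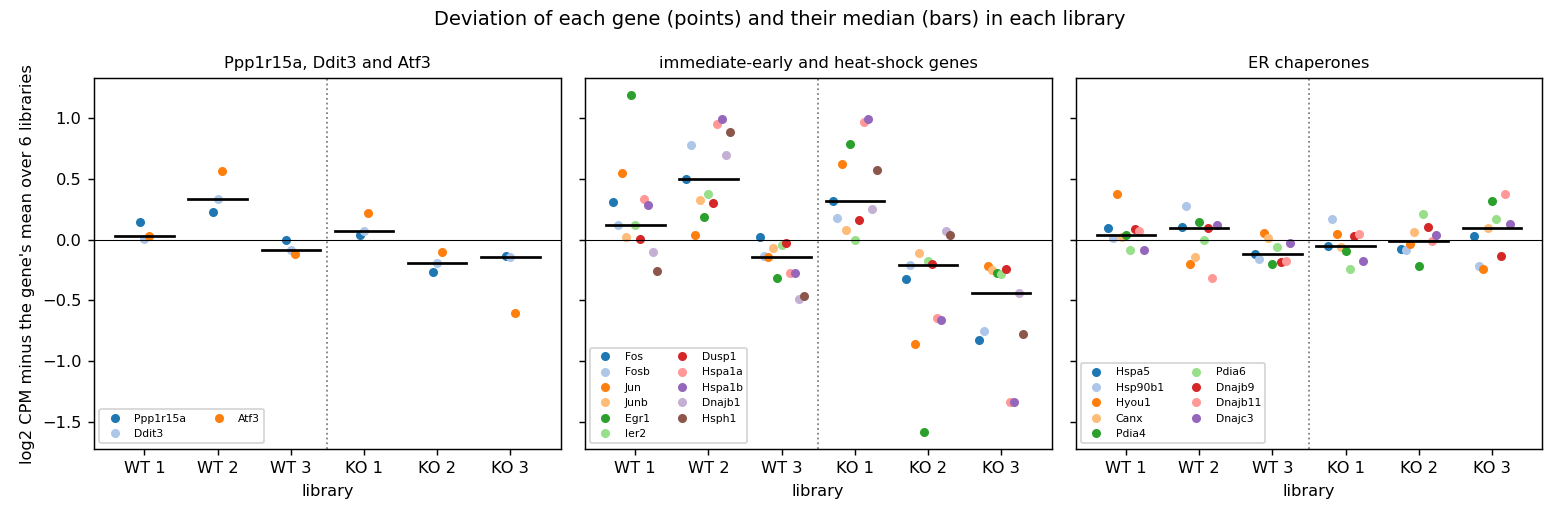
Log2 CPM of each gene minus its mean over the 6 libraries (points) with the median over the genes shown (bars), for Ppp1r15a, Ddit3 and Atf3, for 11 immediate-early and heat-shock genes, and for 9 ER chaperones and co-chaperones among the members. The genes of the first panel were put together because their lowest libraries are WT replicate 3 and KO replicates 2 and 3, an order that 9 of the 11 genes in the second panel and Hsp90b1 in the third share. Atf6 and Soat2 share it too and are not shown.

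The spread within groups also set the members apart from each other. On the log2 scale the SD between libraries of a group was 0.07 for Ero1l and Atf4, 0.09 for Canx and 0.10 for Ppp1r15b, Hspa5 and Manf. Among genes tested, the SD of Ero1l stood at percentile 2.27 and that of Atf4 at percentile 2.36. At the other end, Chac1 had an SD of 0.68, Trib3 of 1.23 and Asns of 1.28. The ATF6 arm summed to 2160, 2378 and 2174 CPM in WT and 2118, 2163 and 2168 CPM in KO. The PERK and ATF4 arm summed to 1818, 1918 and 1726 CPM in WT and 1765, 1581 and 1578 CPM in KO. There KO replicates 2 and 3 were the lowest, and Ppp1r15a alone made up most of that sum.

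The 8 members with an ERSE or ERSE-II in the window had a median log2 fold change of -0.02, with 3 above 0, and the 19 other members with a window had a median of 0.03, with 13 above 0. The 95% interval lay within 1.5-fold for 8 of the 8 and for 11 of the 19, against 35.9% of all genes. The median level per length was 51.1 CPM per kb for the 8 and 23.2 for the 19, and interval width falls with level. Of the members whose window holds CARE, Herpud1 was among the highest genes and Asns and Chac1 among the lowest, so the motif did not go with one level.

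Other genes of the same pathways were taken from 7 lists, in which 144 of 156 genes could be tested and 0 had an edgeR adjusted p under 0.05. The unadjusted p was under 0.05 for 4 of them, or 2.78%, against 5.77% of all genes, and all 4 were higher in KO, where 2.71% of all genes were. The groups did not overlap for 17 of the 144, or 11.8%, against 10.6% of all genes. Of these 17, 13 were higher in KO and 4 lower, where 5.46% and 5.19% of all genes were. None of the other lists had a median log2 fold change beyond 0.14 in either direction.

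In the list of translocon and ER entry genes, 2 of 30 passed the unadjusted threshold, or 6.67% against 5.77% of all genes. Spcs2, a subunit of the signal peptidase that trims proteins entering the ER, was at 35.8, 42.4 and 38.5 CPM in WT and 54.4, 56.3 and 59.3 CPM in KO. Every KO library was above every WT library, with a log2 fold change of 0.54 ± 0.15 (edgeR adjusted p = 0.834). Sec11a, a catalytic subunit of the same enzyme, was at 33.3, 37.6 and 34.2 CPM in WT and 42.4, 59.3 and 43.5 CPM in KO. Its groups did not overlap either, and its log2 fold change of 0.48 ± 0.17 was 0.28 without KO replicate 2. Sec11c, the other catalytic subunit and the highest gene of the list at 296 CPM per kb, had a log2 fold change of -0.10 ± 0.13, and the remaining subunits Spcs1 and Spcs3 had 0.19 ± 0.18 and 0.04 ± 0.15. Over the list, 24 of 30 estimates lay above 0, with a median of 0.10, which was 0.026 when KO replicate 2 was left out and stood at 0.18 when KO replicate 1 was. Over all genes the median log2 fold change was 0.11 for the 3144 genes with an mRNA length up to 1906 bases and -0.08 for the 3141 genes of 4522 bases or more, and with offsets for length and GC content the median of this list was 0.09.

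Among 24 tested targets of ATF4 and CHOP outside the members, 1 passed the unadjusted threshold, or 4.17% against 5.77% of all genes. Slc7a11, the cystine transporter, was at 38.9, 49.6 and 38.6 CPM in WT and 39.3, 68.3 and 71.8 CPM in KO. KO replicates 2 and 3 were the highest libraries and KO replicate 1 lay among the WT, with a log2 fold change of 0.50 ± 0.22, which was 0.73 without KO replicate 1. Phgdh, the first enzyme of serine synthesis, averaged 4.11 ± 2.32 CPM over the WT and 6.35 ± 1.09 CPM over the KO libraries (SD, n = 3 each), with a log2 difference of 0.58 ± 0.41. Atf3, the highest gene of this list at 191 CPM per kb, had a log2 fold change of -0.31 ± 0.23.

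Of the 18 cytosolic aminoacyl-tRNA synthetases, which ATF4 also induces and whose uncharged substrates GCN2 reads, 1 passed the unadjusted threshold. That is 5.56%, against 5.77% of all genes. The groups did not overlap for 4 of the 18, or 22.2% against 10.6% of all genes, with 2 higher and 2 lower in KO. Rars was at 33.1, 25.6 and 33.4 CPM in WT and 38.5, 40.2 and 43.9 CPM in KO, above every WT library in every KO library, with a log2 fold change of 0.41 ± 0.17 (edgeR adjusted p = 0.834). Hars had a log2 fold change of 0.31 ± 0.16 and Qars, the highest of them at 80.5 CPM per kb, of -0.07 ± 0.13. The median of the 18 was -0.02, with 8 above 0.

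The 3 remaining lists of UPR and ER quality control genes held no gene at an unadjusted p under 0.05. Among 22 other sensors, activators and brakes, Creb3, an ER-anchored transcription factor, averaged 94.3 ± 6.39 CPM over the WT and 114 ± 10.7 CPM over the KO libraries (SD, n = 3 each), with a log2 difference of 0.27 ± 0.13. Tmbim6 (BAX inhibitor 1), a restraint on IRE1 and the highest gene of that list, was at 586 CPM in each WT library and at 582, 684 and 757 CPM in KO, with 0.20 ± 0.13 on the log2 scale. Among 23 other chaperones and disulfide enzymes, Calr (calreticulin) led the levels at 277 CPM per kb with a log2 fold change of 0.16 ± 0.12. Pdia5 had a log2 fold change of -0.56 ± 0.25 and Ero1lb of -0.24 ± 0.12. Ero1lb, the other ER oxidase, was 4.86 to 5.41 times as high per length as Ero1l in the WT libraries and 3.97 to 4.34 times in the KO libraries. These ranges do not overlap, but the ratio was 1 of 11 computed, singled out after its values were seen, and was not tested. Among 20 other genes of ER-associated degradation, the log2 fold change was 0.06 ± 0.12 for Vcp, the ATPase that extracts substrates, 0.23 ± 0.12 for Ubxn4 and 0.14 ± 0.14 for Ube2j2.

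Reported substrates of IRE1-dependent decay, of which 7 of 9 could be tested, had a median log2 fold change of 0.14, and 0 of 7 passed the unadjusted threshold. Bloc1s1, the substrate most often used as a readout of this decay, was at 26.5, 37.1 and 30.2 CPM in WT and 31.3, 45.7 and 43.8 CPM in KO. KO replicates 2 and 3 were the highest libraries, KO replicate 1 lay inside the WT range, and the log2 fold change was 0.37 ± 0.20 (edgeR adjusted p = 0.834). Tapbp (tapasin), which is also a part of MHC class I loading, averaged 1361 ± 56.1 CPM over the WT and 1550 ± 156 CPM over the KO libraries (SD, n = 3 each), with a log2 difference of 0.19 ± 0.12. Scara3 was scarce, with means of 1.24 ± 0.43 CPM over WT and 2.64 ± 0.17 CPM over KO libraries and 1.06 ± 0.50 on the log2 scale.

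**Figure D4:**
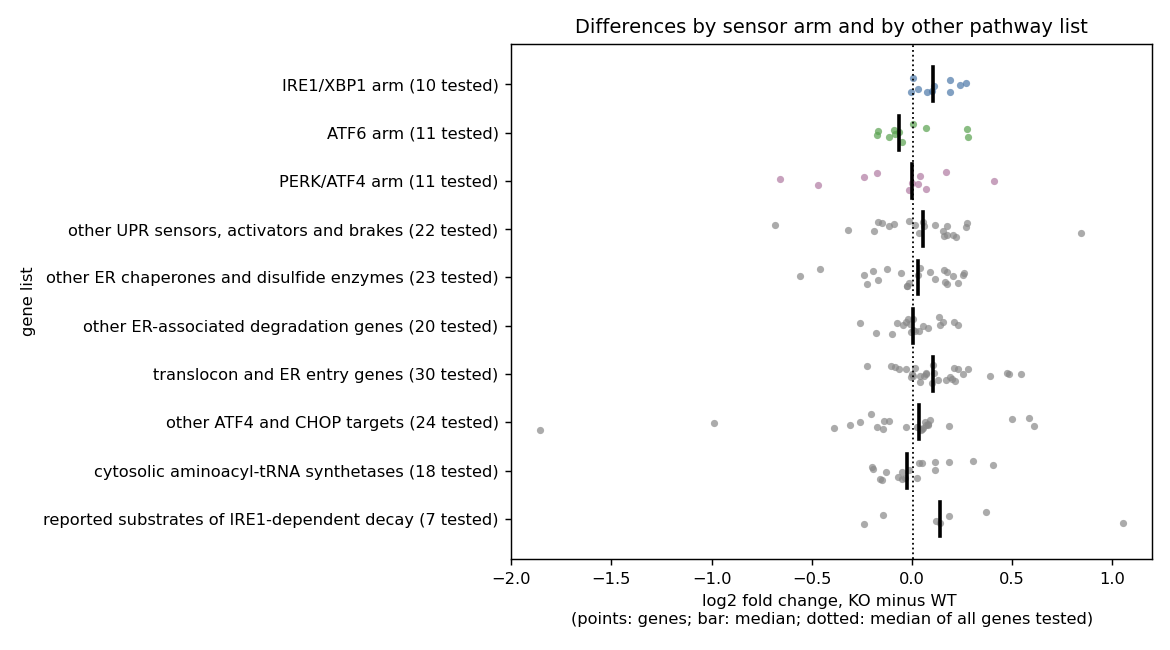
Log2 fold change, KO minus WT, of each tested gene (points) and the median (bars) in the 3 sensor arms and the 7 other pathway lists; the dotted line is the median of all genes tested. The medians lie between -0.06 for the ATF6 arm and 0.14 for the decay substrates, and the points spread most among the other ATF4 and CHOP targets.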

How the data were processed

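The authors deposited raw read counts per Ensembl gene for 6 libraries. The submitters' processing notes name HISAT2 2.0.5, HTSeq and mm10; the annotation, strand setting and treatment of reads with several matches are unknown here. Symbols, positions and lengths came from GENCODE M21, with the most abundant feature taken for a repeated symbol. After filterByExpr and TMM scaling, all 12568 genes were fitted with edgeR 4.0.16 (glmQLFTest, robust) in R 4.3.3, KO against WT, and adjusted by Benjamini-Hochberg (threshold 0.05). The fit was checked on simulated counts that varied less between libraries than these data, so the check does not measure the power here. The SE is the log2 fold change over the square root of F. Level per length is CPM per kb of the longest principal mRNA. The members and lists were chosen with earlier results of these data known.

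Values in every library are given for 7 regulators and, per arm, for the 4 other members with the smallest p and the 2 with the highest level; per other list, the 2 genes with the smallest p and the 1 highest were named. Alternatives were other scalings, filters and tools (DESeq2 1.42.0, limma 3.58.1), a replicate block, length and GC offsets, leaving out antibody, T-cell receptor and haemoglobin genes, and leaving out each library. The older quasi-likelihood method was added after the data were seen. Every pair of libraries differed by more than sampling noise.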

Additional observations from a re-analysis of the deposited data

How the results depend on the processing

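The members gave 0 calls at an adjusted p under 0.05 under all 17 alternatives, and the lowest adjusted p of any member was 0.286 (Eif2ak4, edgeR without KO replicate 1). Over all genes, edgeR without a filter called 3, DESeq2 called 10, and the fits that leave out 1 library called 0 to 7. The number of members at an unadjusted p under 0.05, 1 in the main comparison, was 0 to 4 when 1 library was left out. It was 0 without WT replicate 1, WT replicate 3, KO replicate 2 or KO replicate 3, and 4 without KO replicate 1, where Atf6, Edem1 and Ppp1r15a joined Eif2ak4. For the other pathway lists that number, 4, was 9 with no filter, 7 with length and GC offsets, and 3 (without KO replicate 2) to 18 (without KO replicate 1). The share of all genes past that value, 5.77% in the main comparison, is not given here for the alternative fits. These counts therefore have no background to be read against. The median of the other ATF4 and CHOP targets, 0.04, was -0.032 with length and GC offsets, and that of the IRE1 and XBP1 arm, 0.11, was 0.18.

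With 1 library left out, medians of the log2 fold change ranged from -0.029 to 0.058 for all members, 0.042 to 0.20 for the IRE1 and XBP1 arm, -0.093 to 0.013 for the ATF6 arm, and 0.013 to 0.12 for the other sensors. They ranged from -0.0077 to 0.074 for the other chaperones, -0.13 to 0.00021 for the other ATF4 and CHOP targets, -0.063 to 0.059 for the tRNA synthetases, 0.026 to 0.18 for the translocon and ER entry genes, and -0.089 to 0.067 for the PERK and ATF4 arm. Of the members, 14 had an estimate that crossed 0 under some alternative: Asns, Atf4, Chac1, Creld2, Dnajb9, Dnajc3, Ern1, Herpud1, Hsp90b1, Pdia4, Ppp1r15b, Sesn2, Trib3 and Xbp1. None of these was called. The cause of these shifts was not tested.

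Any pairing of the libraries by replicate number was weak. The deviations of same-numbered libraries correlated at 0.0545, 0.101 and 0.0594, and those of differently numbered libraries at -0.138 to 0.0521. Each same-numbered value was the highest for its libraries, so a weak pairing is not excluded. With the replicate block the members gave 0 calls and 1 gene at an unadjusted p under 0.05, with a median of 0.0025, and the other lists had 9 such genes in place of 4. Trib3, Asns and Chac1 had 158 reads or fewer in every library and the widest intervals; how much of their spread is counting error was not tested.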
